A study of Homo sapiens with 2 samples.

Results

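The cytosolic ribosomal protein genes, which encode the proteins of the ribosomes of the cytoplasm, were examined in a ChIP-seq experiment on myc-tagged KLF7. The members were the peaks whose deposited gene entry named RPL or RPS followed by a number, RPLP0 to RPLP2, or RPSA. Pseudogenes, the RPS6K kinases and the mitochondrial ribosomal proteins were left out. The rule found 24 of the 1900 peaks, and each lay at a different gene, so 24 of the 81 genes of the family in the GENCODE v44 annotation had a peak (29.6%, 95% Wilson interval 20.8 to 40.3). Of 20007 protein-coding gene symbols, 6.35% had a peak entry of any kind.

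CAL27 is a line of tongue carcinoma cells, long established from a human tumour. The cells had been infected with a lentivirus so that they expressed KLF7 with a myc tag, fixed with formaldehyde and sonicated, and the chromatin gave 1 library precipitated with an anti-MYC antibody (D3N8F) and 1 input library. Both libraries came from CAL27 carrying myc-KLF7, neither was replicated, and cells lacking myc-KLF7 were not analysed here. An antibody to MYC can also bind the endogenous MYC protein, so DNA held by myc-KLF7 and DNA held by MYC cannot be told apart. With 1 ChIP library, the q-values compare that library with its input and not conditions, and the intervals given cover counting error only.

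The ribosome has a small subunit, which decodes the messenger RNA, and a large subunit, which joins amino acids and carries a stalk that recruits the translation factors. The genes of its proteins are among the most actively transcribed in growing cells. Their transcription usually starts at a C inside a run of pyrimidines, and the first exon is often very short, with the start codon in it or soon after it. KLF7 is a zinc finger factor of the Krüppel-like family, which binds GC-rich boxes, and MYC with its partner MAX binds the E-box CACGTG.

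Sequences are shown for 8 member peaks: those with CACGTG or the 9-base GC box GGGGCGGGG within 100 bp of the summit, and those with the highest fold enrichment. They are read from GRCh38 in the direction of transcription, in lower case, with the 6 motifs of promoter factors in capitals; E-box-like sequences, described further on, are not marked. Windows that touched an annotated untranslated region were cut to 30 bases around the motif. RPL21 lies at chr13:27251563-27251592, RPL23A at chr17:28720082-28720111, RPLP1 at chr15:69453056-69453131, RPL37A at chr2:216499025-216499054 and RPL19 at chr17:39200572-39200601, all on the plus strand. RPL9 lies at chr4:39458695-39458724, RPL35 at chr9:124861362-124861412 and RPL12 at chr9:127451098-127451202, all on the minus strand. RPL35, RPL12 and RPL19 show the E-box, and RPL37A shows the 9-base GC box. RPLP1 shows a 6-base GC box and the reverse complement of the ETS site. The reverse complement of the 6-base GC box is in RPL9 and RPL12, that of CCAAT in RPL23A, and that of the YY1 core in RPL21. The E-box of RPL12 lies outside the called peak, and the ETS site of RPLP1 runs past the end of its peak.
RPL21: cggccggaaccGCCATCTTccaggtagggc
RPL23A: cagagcgaacgaATTGGgaacacggctgct
RPL9: tttggcctattcCCGCCCctcagtcttgcc
RPLP1: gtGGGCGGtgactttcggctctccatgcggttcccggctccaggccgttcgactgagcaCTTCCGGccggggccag
RPL35: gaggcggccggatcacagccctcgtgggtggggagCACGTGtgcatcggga
RPL37A: ccaaggcggaGGGGCGGGGgcgccttggct
RPL12: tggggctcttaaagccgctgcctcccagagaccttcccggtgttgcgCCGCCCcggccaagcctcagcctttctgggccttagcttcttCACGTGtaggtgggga
RPL19: tgccgcaccgcaCACGTGtccggtcgaccc

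The members were spread over both subunits and over 12 chromosomes, with 5 on chromosome 19, 4 on chromosome 15 and 3 on chromosome 17. Among genes of the large subunit proper 14 of 46 had a peak (30.4%, 19.1 to 44.8). The stalk genes RPLP1 and RPLP2 had one and RPLP0 did not. Among genes of the small subunit 8 of 32 had a peak (25%, 13.3 to 42.1). The intervals of the subunits overlapped.

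The family share held when position alone was used. MANE Select is the reference transcript that RefSeq and GENCODE chose jointly for a gene. Where a protein-coding gene had none, its GENCODE gene start was used in its place. A summit lay within 1000 bp of the MANE Select start in 24 of the 81 family genes, which were the members themselves, and in 4.75% of 20033 protein-coding genes. For the nuclear genes of mitochondrial ribosomal proteins the count was 5 of 78 (6.41%, 2.77 to 14.1). For genes with EIF or EEF and a digit in the symbol, a set added after the ribosomal values were seen, it was 16 of 69 (23.2%, 14.8 to 34.4). These symbols take in translation initiation and elongation factors, and also enzymes that modify them, such as EEF2K and EEF1AKMT4. The interval of this set overlapped that of the ribosomal proteins.

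**Figure D1:**
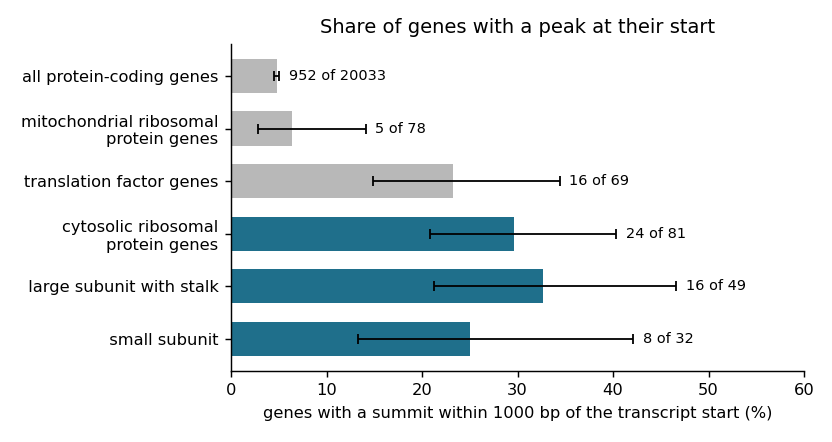
Share of genes with a peak summit within 1000 bp of the MANE Select start, in percent, with 95% Wilson intervals and the counts beside each bar. The cytosolic ribosomal protein genes stood at 29.6%, against 4.75% of all protein-coding genes and 6.41% of mitochondrial ribosomal protein genes. Translation factor genes, taken by EIF and EEF symbols and so with some modifying enzymes among them, stood at 23.2%. Their interval overlapped that of the ribosomal protein genes.

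The feature entry gave another picture, because only 4 members had a promoter entry for the ribosomal protein gene itself, RPLP2, RPS12 and RPS27L among them. That is 4.94% of the family (1.94 to 12.0), where 2.13% of all protein-coding symbols had a promoter entry. For 15 members (62.5%, 42.7 to 78.8) the only entry of the gene was an intron, for RPL21, RPL36, RPL18 and RPS19 it included the 5′ UTR, and for RPL12 it was an exon. Of these 15 members, 14 had the summit within 500 bp of the MANE Select start. RPL35 was the exception among the 15, and its summit lay 560 bp past the start. When each peak was classed by the entries of all genes at it, promoter first, 7 members were of the intron class (29.2%), all 7 within 500 bp of a protein-coding MANE Select start. Over all 1900 peaks 24.9% were of the intron class and 30.3% of the promoter class, and of the 467 other intron-class peaks 111 (23.8%) lay that close to a start.

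The summits gathered just past the first exon. Relative to the MANE Select start, where the first transcribed base is 0, the median summit lay at 166 bp (interval of the median 49 to 247), and 18 of 24 summits lay from 0 to 300 bp downstream (75%, 55.1 to 88.0). From the gene start of the deposited annotation, or the GENCODE gene start where the table named another gene as nearest, the median was 269 bp (181 to 343) and 13 of 24 summits lay in that range (54.2%, 35.1 to 72.1). By the MANE Select model 17 summits fell in intron 1 (70.8%, 50.8 to 85.1), RPL35 in intron 2, RPS19 in the 5′ UTR of exon 1, and 5 upstream of the start. First exons of the members ranged from 28 to 203 bases with a median of 48. Of the 18 summits past the end of exon 1, 17 lay within 250 bp of it, and 8 peaks covered the start base.

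Other peaks near a gene start centred closer to the start, although many of them also lay in intron 1. The 854 other peaks with a protein-coding MANE Select start within 2000 bp had a median summit at -14.5 bp (-34 to -1), with 25.5% (22.7 to 28.6) from 0 to 300 bp downstream and 21.8% (19.1 to 24.7) in intron 1. Those peaks were measured to their nearest start. When the members were also measured to the nearest protein-coding start, the median was again 166 bp and 18 summits again lay from 0 to 300 bp, with RPL18 then counted for its neighbour SPHK2. The 16 genes with an EIF or EEF symbol and a summit within 1000 bp had a median of 80.5 bp (-69 to 274). Of these, 6 summits lay from 0 to 300 bp downstream (37.5%, 18.5 to 61.4) and 7 in intron 1. The intervals of the median and of that share overlapped those of the ribosomal protein genes. EEF1AKMT4 and EEF2K, enzymes that modify elongation factors, are among the 16, with summits at -60 and -69 bp. The median was not taken without them, so it is not one of translation factors alone. The regions are not replicates of a condition, so no test was made of the differences in position.

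**Figure D2:**
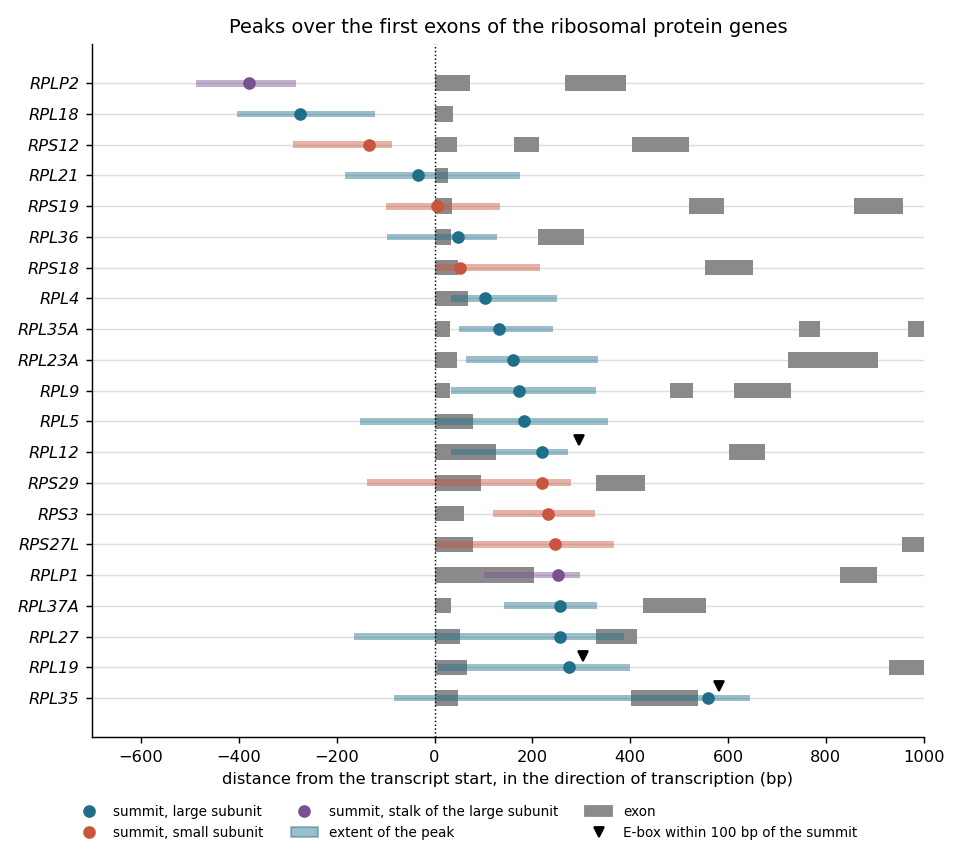
Summit (dot) and extent (coloured bar) of each of 21 member peaks relative to the MANE Select start, in bp along the direction of transcription, with exons in grey and CACGTG within 100 bp of the summit as a black triangle. Most summits lie past a short first exon, between 0 and 300 bp, and RPLP2, RPL18, RPS12 and RPL21 lie upstream.

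**Figure D3:**
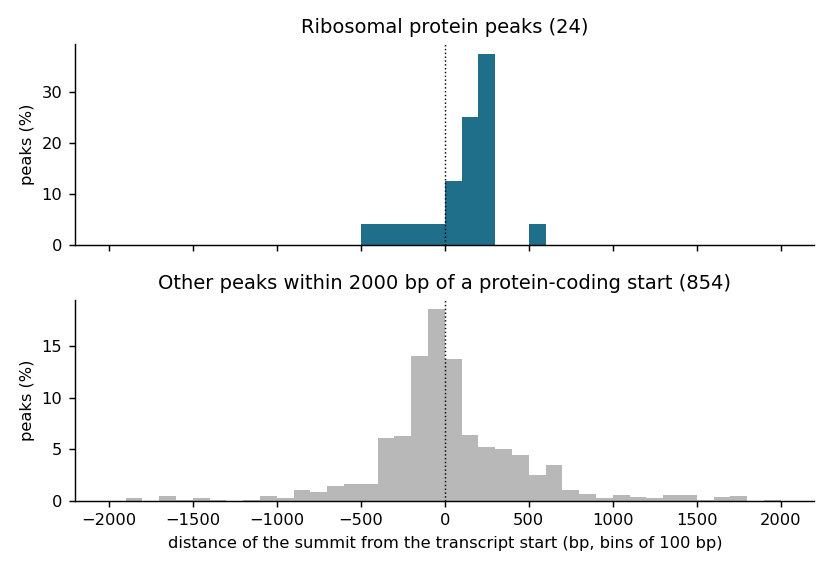
Distribution of summit distances in bins of 100 bp, in percent of peaks, for the ribosomal protein peaks from the start of their own gene and for 854 other peaks from the nearest protein-coding start. The ribosomal protein summits crowd between 0 and 300 bp, and the other summits centre at -14.5 bp.

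The peaks were of ordinary strength. Pileup counts the ChIP fragments that cover the summit. Fold enrichment divides pileup plus 1 by the background rate of the surroundings plus 1. The members had a median fold enrichment of 5.49 (4.69 to 6.16) with a range of 3.4 to 9.65, a median pileup of 12 fragments and a median -log10 q of 4.33. The 854 other peaks near a start had a median fold enrichment of 5.28 (5.18 to 5.34), a median pileup of 12 and a median -log10 q of 4.42, and 13 of the 24 members exceeded that fold enrichment. The median was 5.67 for the 16 peaks of the large subunit and stalk and 4.90 for the 8 of the small subunit, with overlapping intervals of 4.43 to 6.48 and 3.55 to 6.37. Exact 95% Poisson intervals of the pileups overlapped between all members, since the highest began at 11.4 fragments and the lowest ended at 14.4, so the order that follows is not resolved by depth.

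**Figure D4:**
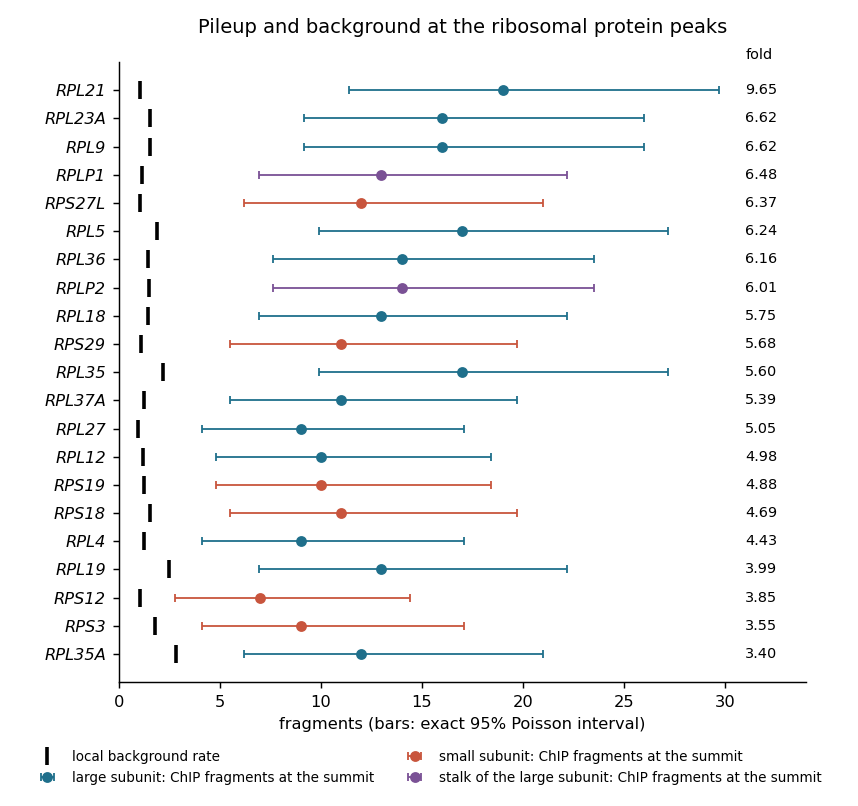
Pileup at the summit of 21 members with its exact 95% Poisson interval (dot and bar, in fragments), the local background rate (black tick) and the fold enrichment printed at the right, in order of fold enrichment. Pileups run from 7 fragments at RPS12 to 19 at RPL21 over background rates of 0.982 to 2.83.

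In the large subunit the highest values were at RPL21 (chr13:27251376-27251733), with 19 fragments (11.4 to 29.7) over a background of 1.07, a fold enrichment of 9.65 and -log10 q at 13.6. It ranked 54 among all peaks by fold enrichment. Its summit lay 33 bp upstream of the MANE Select start but 216 bp downstream of the deposited gene start. The peak also had a promoter entry of LINC02340 and none of RPL21. RPL23A, a protein near the exit of the nascent chain (chr17:28720049-28720319), and RPL9 (chr4:39458591-39458888) each had 16 fragments over 1.57 and a fold enrichment of 6.62, with summits at 160 and 172 bp. RPL5, which carries the 5S ribosomal RNA into the subunit (chr1:92831887-92832394), had 17 fragments over 1.88, a fold enrichment of 6.24 and a summit at 183 bp. These were the only large-subunit members outside the stalk with a -log10 q above 7.

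RPL36 (chr19:5690197-5690423) had 14 fragments and a fold enrichment of 6.16 at 49 bp. RPL18 (chr19:48619300-48619581) had 13 fragments and a fold enrichment of 5.75, and its summit lay 274 bp upstream of the MANE Select start, 84 bp downstream of the deposited gene start, and 54 bp from the start of SPHK2, a sphingosine kinase gene on the opposite strand. It was the single member whose summit was nearer to another protein-coding start than to its own. RPL35, at the exit of the nascent chain (chr9:124861313-124862040), had 17 fragments over a higher background of 2.21 and a fold enrichment of 5.60. Its peak was the longest, with 728 bp, where the median member had 237 bp.

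For RPL37A (chr2:216498986-216499176) there were 11 fragments and a fold enrichment of 5.39 at 256 bp, and for RPL27 (chr17:42998254-42998806) 9 fragments and 5.05, also at 256 bp. RPL12, a protein of the stalk base (chr9:127451133-127451373), had 10 fragments and 4.98 at 219 bp. RPL4, which lines the tunnel of the nascent chain (chr15:66504604-66504822), had 9 fragments and 4.43 at 103 bp. These 4 peaks all lay in intron 1 of the MANE Select model and passed the authors' threshold with -log10 q between 2.40 and 4.13.

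RPL19 (chr17:39200291-39200682) had 13 fragments over 2.51 and a fold enrichment of 3.99 at 274 bp. RPL35A, a gene mutated in Diamond-Blackfan anaemia (chr3:197950241-197950433), had 12 fragments over 2.83 and 3.4 at 132 bp, the lowest fold enrichment of the members. The RPL35A peak, with -log10 q at 1.63, was not kept at a q-value of 0.01.

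The acidic stalk proteins bind the elongation factors. RPLP1 (chr15:69452920-69453115) had 13 fragments over 1.16, a fold enrichment of 6.48 and -log10 q at 6.29, and its summit lay 253 bp past the start, 51 bp beyond a first exon of 203 bases. RPLP2 (chr11:809479-809684) had 14 fragments over 1.5, a fold enrichment of 6.01 and -log10 q at 5.91. Its summit lay 380 bp upstream of the MANE Select start but only 60 bp upstream of the deposited gene start. The pair thus had like values but summits on opposite sides of the start.

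In the small subunit RPS27L, a relative of RPS27 (chr15:63157110-63157473), had 12 fragments over 1.04 and a fold enrichment of 6.37. Its entry was a promoter, although the summit lay in intron 1 of the MANE Select transcript, at 247 bp. RPS29 (chr14:49586101-49586518) had 11 fragments and 5.68, and its summit also lay in intron 1, at 219 bp.

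RPS19, the gene most often mutated in Diamond-Blackfan anaemia (chr19:41860156-41860388), had 10 fragments and a fold enrichment of 4.88, with the summit only 6 bp past the start. RPS18, in the head of the subunit (chr6:33272079-33272291), had 11 fragments and 4.69 at 52 bp. Both had a -log10 q of 3.18.

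RPS12 (chr6:132814279-132814483) had 7 fragments (2.81 to 14.4), the lowest pileup, a fold enrichment of 3.85 and a summit 133 bp upstream. RPS3, which lies where the messenger RNA enters (chr11:75399638-75399847), had 9 fragments and 3.55 at 232 bp. Their -log10 q of 1.39 and 1.34 lay close to the limit of the table, a q-value of 0.05. In all 4 members had a q-value above 0.01, and 18 members were below 0.001.

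Many of the peaks were shared with other genes. At 13 members the table also gave a promoter entry of another gene. Counting the promoter of any gene, 14 of 24 members had such an entry (58.3%), and among the other peaks near a start 57.0% did. At 5 members it belonged to a small nucleolar RNA, an RNA that guides modification of ribosomal RNA and is often carried in introns of ribosomal protein genes, as SNORD15A at RPS3, SNORD16 and SNORD18A at RPL4, SNORD42B at RPL23A and SNORD101 at RPS12. The peak of RPS29 also had promoter entries of RN7SL1, the RNA of the signal recognition particle, and of AL139099.5. For 7 members the table named a gene outside the family as the nearest gene. For 6 members another protein-coding MANE Select start lay within 1000 bp of the summit: SPHK2 at RPL18, VPS52 at RPS18 (251 bp), LIAS at RPL9 (306 bp), LRSAM1 at RPL12 (323 bp), ZWILCH at RPL4 (574 bp) and ARPC5L at RPL35 (733 bp), each on the opposite strand. A peak at such a pair of genes cannot be given to 1 of them from its position.

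Few members held the E-box near the summit. In windows of 201 bp around the summit, on both strands, CACGTG was present in 3 members, RPL35, RPL12 and RPL19 (12.5%, 4.34 to 31). It lay 20, 74 and 27 bp from the summit, and 580, 293 and 301 bp past the start. The site at RPL12 lay outside the called peak, and 2 of 24 whole peaks (8.33%) held CACGTG. The other peaks near a start had it in 26.7% (23.8 to 29.8), and windows of the same length at all protein-coding starts in 5.68%. At 166 bp past the start, the median position of the members' summits, 2.53% of all protein-coding genes had it. The interval of the members held the first 2 of these values and lay above the third, for which the windows were not centred on summits. In windows at that same place the members had it in 1 of 24 (4.17%, 0.739 to 20.2), an interval that held 2.53%.

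GC boxes were searched in the same windows. The 6-base GC box GGGCGG, which is contained in the 9-base box, was found in 9 members (37.5%, 21.2 to 57.3), in 71.5% (68.4 to 74.5) of the other peaks near a start, in 53.6% of all starts and in 40.9% of all genes at 166 bp. With 200 bp on either side of the summit the members' share was 62.5%, and in the whole peak 50%. The median GC content of the windows was 64.4% in the members and 70.1% in the other peaks. It was 66.7% at all starts and 66.2% in all genes at 166 bp, and its part in the differences was not tested. The 9-base box GGGGCGGGG was found in RPL19 and RPL37A (8.33%, 2.32 to 25.8), in 21.4% of the other peaks, in 18.1% of starts and in 6.18% of genes at 166 bp. RPL19 was the only member with both this box and the E-box, 29 and 27 bp from the summit, and it had one of the lower fold enrichments.

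Motifs of other promoter factors were each found in at most 3 members within 100 bp of the summit. The ETS site CCGGAAG was found in RPLP1, RPLP2 and RPL18 (12.5%), in 13.2% of the other peaks, in 11.3% of starts and in 3.45% of genes at 166 bp. The YY1 core AAGATGGC was found in 2 members, RPL21 among them (8.33%, 2.32 to 25.8), where the same 3 groups had 3.63%, 3.77% and 1.07%. The YY1 share of the members was 4.17% with 50 bp and 20.8% with 200 bp on either side. CCAAT was found in RPL23A alone (4.17%, 0.739 to 20.2), where they had 14.4%, 25.3% and 12.8%. The CCAAT share of the members was 25% with 200 bp on either side and 20.8% in the whole peak. None of the 6 motifs lay within 100 bp of the summit in 10 members. A missing match says only that these letters were not in the window.

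Sequences like the E-box were searched after these values were seen, on both strands: CACGCG, the sequence CATGTG, the sequence CATGCG and the sequence CACGAG. At least 1 of them was present in 14 members (58.3%, 38.8 to 75.5), in 51.5% (48.2 to 54.9) of the other peaks near a start in 24% of all starts and in 19.5% of all genes at 166 bp. CACGCG had the largest share, with 9 members, among them RPL21, RPL23A, RPS27L, RPLP2, RPL12, RPS19 and RPL19 (37.5%, 21.2 to 57.3). The other peaks had it in 28.2% and all starts in 10.8%, and all genes at 166 bp had it in 7.98%. RPS19 and RPS27L had no match to the 6 motifs but held CACGCG 93 and 27 bp from the summit.

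**Figure D5:**
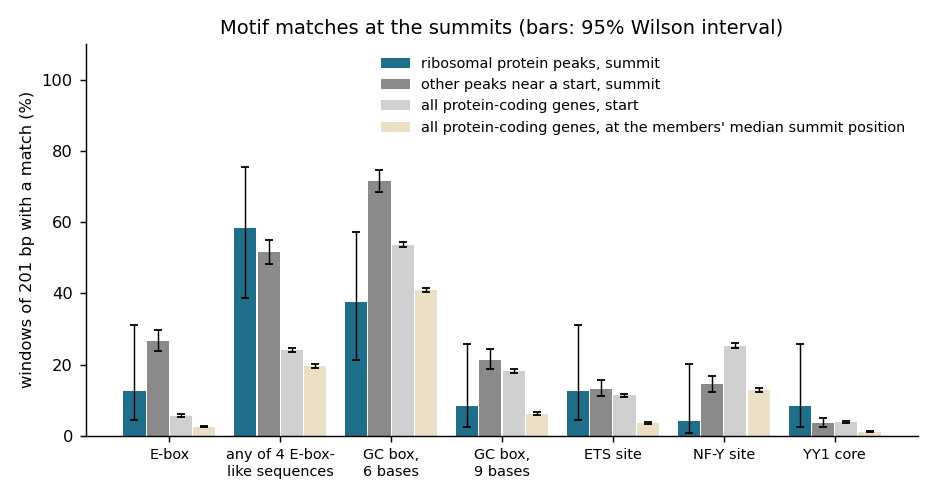
Percent of windows of 201 bp with a match on either strand, with 95% Wilson intervals, at the summits of the 24 members, at the summits of 854 other peaks near a start, and for all protein-coding genes at the MANE Select start and 166 bp past it. NF-Y site stands for CCAAT. The members' E-box share of 12.5% lies below that of the other peaks and above those of all genes, with a wide interval. In windows 166 bp past the start, which are not drawn for the members, their E-box share was 4.17%.

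The 57 family genes without a peak were compared at a fixed place, 166 bp past the start, which is the median of the members' own summits. Here CACGTG was present in 1 of 24 genes with a peak and 4 of 57 without, and GGGCGG in 13 of 24 (54.2%, 35.1 to 72.1) and 24 of 57 (42.1%, 30.2 to 55.0). CACGCG was present in 7 of 24 (29.2%, 14.9 to 49.2) and 5 of 57 (8.77%, 3.81 to 18.9), and in 7.98% of all protein-coding genes at that place. CACGCG had been singled out for its share at the members' own summits. Windows here and at the start overlap many of those, so they cannot serve as a check on it. The other E-box-like sequences stood in 0 of 24 and 2 of 57 (CATGTG), 1 of 24 and 3 of 57 (CATGCG), and 2 of 24 and 2 of 57 (CACGAG). The intervals of the family groups overlapped for each of these. At the start itself the ETS site stood in 3 genes with a peak (12.5%, 4.34 to 31) and 19 without (33.3%, 22.5 to 46.3). The YY1 core stood there in 5 with a peak (20.8%, 9.24 to 40.5) and 4 without (7.02%, 2.76 to 16.7), and CACGCG in 6 with a peak (25%, 12.0 to 44.9) and 5 without (8.77%, 3.81 to 18.9). GGGCGG stood at the start in 45.8% with a peak (27.9 to 64.9) and 50.9% without (38.3 to 63.4), the opposite order to that at 166 bp, CACGTG in 0 of 24 and 4 of 57, and GGGGCGGGG in 0 of 24 and 8 of 57. The Wilson upper limit of 0 of 24 is 13.8%, and all these intervals overlapped as well. Median GC content at 166 bp was 64.9% with a peak and 63.7% without.

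The starts carried the family's signature in both groups. An unbroken run of at least 5 pyrimidines across the MANE Select start base was found in 16 of 24 genes with a peak (66.7%) and 45 of 57 without (78.9%), where all protein-coding genes had it in 7.88%. The start base was a C in 16 of the 24 and 46 of the 57, and in 10.8% of all genes. The run had a median length of 10.5 bases with a peak and 11 without.

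Genes without a peak in the large subunit included RPL3, RPL6, RPL7, RPL8, RPL10, RPL11, RPL13, RPL15, RPL22, RPL26, RPL30 and RPL41, besides the stalk gene RPLP0. In the small subunit they included RPSA, RPS2, RPS3A, RPS4X, RPS6, RPS7, RPS14, RPS15, RPS20, RPS24 and RPS27A. RPS14 was the nearest gene to 1 further peak without any gene entry, which lay outside the gene. At this depth, where the weakest member had 7 fragments, the lack of a peak is a call that was not made and does not show that a gene is free of the protein.

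Of 9 ribosomal protein or ribosome-associated genes that the symbol rule misses, 3 had an entry. RPL7L1 had 12 fragments and a fold enrichment of 5.34 at 411 bp in intron 1. RACK1, a scaffold on the small subunit, had 13 fragments and 3.99, but its summit lay 2626 bp upstream of the MANE Select start. Among the pseudogenes of the family 1 had an entry, RPL10P15, and 7 were listed as the nearest gene of a peak.

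Copied sequence was limited at the members, although these genes have many pseudogenes. Every 31-base word of each peak was counted over the assembled and unplaced sequence of GRCh38. In 15 of 24 members no word occurred elsewhere, and in none did more than 50% of the words. The highest shares were 28.3% at RPLP1 and 26.1% at RPL12, and the peak of RPS29 beside RN7SL1 had 11.1%.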

How the data were processed

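ChIP-seq libraries from CAL27 cells expressing myc-KLF7 (1 anti-MYC ChIP, 1 input) were represented by the annotated peak table that the authors deposited. Per the methods, reads were trimmed with Trimmomatic, mapped with BWA and deduplicated, and peaks were called with MACS2 at a q-value of 0.05 on the ChIP library against the input; the submitters' processing notes also name FastQC, ChIPseeker and hg38. The deposited pileup is a coverage signal in fragments, the authors' fold enrichment is a ratio to the local background, and -log10 p and -log10 q are the authors' values. The table holds no read totals, so depth is known only from the pileups and background rates, recovered as (pileup + 1) / fold enrichment - 1.

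Peaks were matched to GENCODE v44 by symbol (1236 of 1706 entry symbols are protein-coding there and 35 more by a RefSeq synonym). Of 872 deposited gene spans, 804 (92.2%) shared an end with GENCODE within 10 bp, so positions were read as GRCh38. Distances ran from the summit to the MANE Select start, and from the deposited start as the planned measure. Shares have Wilson and medians order-statistic intervals at 95%. Functions were tested on simulated data. Family genes with a peak entry were to be named with their peak; results for some genes are not reported here, although counts and medians include them. Printed sequences were chosen by motif and fold enrichment. The members and lists were chosen with earlier results of these data known. No test was made, since there are no replicates. Alternatives covered stricter thresholds, other definitions of family, start and feature, and other windows. Python 3.11.15 was used with numpy 2.4.6, pandas 2.3.3, scipy 1.17.1, numba 0.67.0 and matplotlib 3.10.9.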

Additional observations from a re-analysis of the deposited data

How the results depend on the processing

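Of 46 alternatives to 11 values, 37 stayed within the interval of the value reported, or within 1.5 times of a count, and 9 moved. The share of family genes with a peak fell from 29.6% to 17.3% with fold enrichment of at least 5, where the number of peaks was 14 in place of 24, and to 4.94% with promoter entries only. It ran from 22.2% to 30% under stricter q-values, a minimum pileup, the wider and narrower family and positions relative to a start. The share of members with a promoter entry rose from 16.7% to 58.3% with the promoter of any gene. The median summit distance was 269 bp from the deposited gene start, the planned measure, and 166 bp from the MANE Select start, a change chosen after seeing that RPL4, RPL36 and RPS29 lie 13003 to 19780 bp from the deposited or reference start of a longer transcript. Motif shares moved with the window: GGGCGG rose from 37.5% to 62.5% with 200 bp on either side of the summit, and CCAAT from 4.17% to 0% with 50 bp, 25% with 200 bp and 20.8% in the whole peak. CACGTG ranged from 8.33% to 20.8%. No paired analysis was possible because the groups hold 1 library each and the values come from no test. Pileups of 7 to 19 fragments limit what can be said of single genes, and genes without a peak may lie just under the threshold.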
